A study of Mus musculus with 4 samples.

Results

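This section describes 9 mouse genes at which HA-tagged human WDR5 (HA-hWDR5) had a peak at T12h and no overlapping peak at T48h. E2f6 and Mga encode DNA-binding subunits of the Polycomb complex PRC1.6. Dazl, Smc1b, Tdrkh, Tex14, Zcwpw1, Dpy19l2 and Fam229b were grouped with them as testis or germline genes. The genes were chosen by the measured peaks themselves: the summit of a T12h peak had to lie within 1 kb of either end of the gene, and no T48h peak could overlap it. Such a peak is called a boundary peak here. They are 9 of 642 genes with a T12h boundary peak, 2.93% of the 21883 protein-coding genes of the annotation used. No T12h boundary peak overlapped a T48h peak at 455 of those 642 genes (2.08% of all protein-coding genes). By peak, 514 of 697 T12h boundary peaks had no overlap, so lack of overlap was the usual outcome. The 9 are not all the PRC1.6 and germline genes among the 455: Hdac2, Rybp, Tfdp1, Ddx25, Syce2 and Mei1 met the same rule. Presence at T12h and absence at T48h are therefore a description of how the genes were picked and were not tested.

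The cells derive from the mouse embryonic stem cell line Rx:GFP KI. In both groups Wdr5 was knocked out and HA-hWDR5 was expressed from a doxycycline-inducible construct, switched on at T12h in the first group and at T48h in the second. The starting point of the hour count is not given in the labels, nor is whether a line is a single clone. Differentiation to embryoid bodies followed SFEBq, a serum-free aggregate culture, in GMEM with 5% KSR, 2% Matrigel was given on day 1, and the series text places the bodies at day 6. Each group had 1 anti-HA ChIP-seq library and 1 input library, so there are no replicates, and a difference between rescue times cannot be told apart from a difference between libraries. The peak files hold positions and not expression, so the cell types present could not be checked against markers.

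PRC1.6 is a variant Polycomb repressive complex built round PCGF6, RING1A or RING1B, and L3MBTL2. It is brought to CpG-rich promoters by E2F6 with a DP partner, which bind E2F sites, and by MGA with MAX, which bind E-boxes. It is known for keeping germline and meiotic genes silent in embryonic stem cells and somatic cells. WDR5 is best known as a subunit of the MLL/SET histone H3K4 methyltransferase complexes and has also been purified with PRC1.6.

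The sequences below show where promoter windows of these genes, taken from RefSeq on GRCm38.p6 (mm10), hold the letters that E2F and MGA-MAX factors are known to read. Each is written 5′ to 3′ on the strand of the gene. Capitals mark GCGGGA, the core of the E2F site, or its reverse complement in E2f6, Tex14, Fam229b and Smc1b, and the E-box CACGTG in Dpy19l2. All of these matches lie inside the T12h peak of the gene. Those of Fam229b also lie inside the span of its divergent neighbour Tube1, and that of Tex14 begins on the 5′ end base of its neighbour Rad51c. Neither motif was more frequent here than in protein-coding genes with a T12h boundary peak. The shares were 44.4% against 46.1% for the E2F core and 11.1% against 16.6% for the E-box. The first 4 sequences are windows of 30 bases, at chr12:16810900-16810929 (plus strand), chr11:87404942-87404971 (plus), chr10:39134033-39134062 (minus) and chr9:24696327-24696356 (minus). Smc1b is shown with the whole 102 bases between its end and that of Ribc2, its head-to-head neighbour, at chr15:85131958-85132059 (minus).

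E2f6: ggaccggtgtgcGCGGGAgatctaacggac
Tex14: accccttgctttTCCCGCcctcgcggggga
Fam229b: gagcacTCCCGCccaaacTCCCGCcttagc
Dpy19l2: cgggctgggctgCACGTGgacagcgcaaga
Smc1b: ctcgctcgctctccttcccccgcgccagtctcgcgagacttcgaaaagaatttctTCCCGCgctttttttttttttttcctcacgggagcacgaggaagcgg

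Mga, Dazl, Zcwpw1 and Tdrkh had neither of these motifs in their windows. Tdrkh is shown because its 2 T12h peaks lie at either end of the stretch that separates it from the divergent lncRNA gene 1700040D17Rik. Of the 287 bases between the genes, the 249 held by the table are printed (chr3:94412994-94413242, plus strand), with the CCAAT box, known as an NF-Y site, in capitals as its reverse complement.

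Tdrkh: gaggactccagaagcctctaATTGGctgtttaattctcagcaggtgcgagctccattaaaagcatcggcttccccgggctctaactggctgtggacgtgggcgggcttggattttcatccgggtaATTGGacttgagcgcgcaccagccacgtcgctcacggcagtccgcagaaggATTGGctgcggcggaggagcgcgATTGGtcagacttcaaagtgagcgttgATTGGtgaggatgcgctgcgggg

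E2f6, which encodes a repressive E2F factor without a transactivation domain, had 1 T12h peak (chromosome 12, 16810719 to 16811429). It held 97 tags over 711 bp, with a score of 391.54 and a fold of 12.97. The score is the p-value that MACS gave the peak, as its negative log10 multiplied by 10, and fold means its ratio of tags over the local background. The summit lay 273 bp inside the gene and 217 bp downstream of the nearest transcript start in the promoter table. The nearest T48h peak was 1.54 Mb away.

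Mga, which encodes a scaffold that carries both a T-box and a MAX-binding domain, had 2 T12h peaks. The first (chromosome 2, 119872494 to 119873675) had more tags than any other peak of the 9 genes, 154 over 1182 bp, with a score of 596.05 and a fold of 11.55. It began at the left end of the gene span, and its summit lay 733 bp from that end. The second (119897363 to 119897848), which was not counted as a boundary peak because it lay 25024 bp from the gene end, held 51 tags over 486 bp with a score of 110.28 and a fold of 7.03. Its summit was 299 bp downstream of the only Mga transcript start in the promoter table, while the first peak lay at the 5′ end of the whole gene span. The nearest T48h peaks were 2.5 and 2.48 Mb from them.

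Among the meiotic genes, Smc1b encodes the meiosis-specific SMC1 subunit of cohesin, and Zcwpw1 encodes a reader of histone methylation at meiotic recombination sites. The Smc1b peak (chromosome 15, 85131874 to 85132162) held 37 tags over 289 bp, with a score of 159.99 and a fold of 14.52. Its summit lay 19 bp outside the gene, upstream of the start, in the short stretch printed above. The Zcwpw1 peak (chromosome 5, 137787644 to 137788002) held 52 tags over 359 bp, with a score of 237.76 and a fold of 12.99. That summit was 687 bp from the gene end but 42 bp downstream of the nearer of its 2 listed transcript starts. The nearest T48h peaks were 5.05 Mb from Smc1b and 0.492 Mb from Zcwpw1.

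Dazl encodes an RNA-binding protein needed for germ cell development, and Tdrkh a Tudor protein of the piRNA pathway. The Dazl peak (chromosome 17, 50292930 to 50293287) held 31 tags over 358 bp, with a score of 70.98, a fold of 6.39 and a summit 457 bp downstream of the start. It did not reach the promoter window. The stronger Tdrkh peak (chromosome 3, 94413182 to 94413597) held 44 tags over 416 bp, with a score of 134.49, a fold of 7.14 and a summit 226 bp downstream of the start. The weaker (94412838 to 94413016) held 16 tags over 179 bp, with a score of 52.03 and a fold of 7.05. Its summit lay at -354 bp from the Tdrkh start and 65 bp inside 1700040D17Rik, and by distance it belongs to the lncRNA gene rather than to Tdrkh. The nearest T48h peaks were 1.34 Mb from Dazl and 1.44 Mb from Tdrkh.

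Tex14 encodes a protein of the intercellular bridges between germ cells, and Dpy19l2 a protein needed to shape the sperm head. The Dpy19l2 peak (chromosome 9, 24695783 to 24696507) held 133 tags over 725 bp, with a score of 740.86 and a fold of 19.26, the highest score and fold of the 9 genes. Its summit lay at -11 bp from the listed start. The Tex14 peak (chromosome 11, 87404891 to 87405071) was the weakest by score, with 16 tags over 181 bp, a score of 51.45 and a fold of 7.83. The lowest score in the T12h list was 50.01, so Tex14 and the weaker Tdrkh peak lay just inside the limit of the peak calling. Their deposited false discovery rates were 12.61% and 11.15%, against 2.36% to 3.33% for the strongest peak of each of the other 8 genes. The nearest T48h peaks were 3.82 Mb from Dpy19l2 and 0.968 Mb from Tex14.

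Fam229b is a small gene whose function is not described here. Its peak (chromosome 10, 39133443 to 39134124) held 132 tags over 682 bp, with a score of 529.42 and a fold of 12.45. The summit lay 162 bp downstream of the nearest of its 3 listed starts, and the nearest T48h peak was 8.92 Mb away, the largest distance among the 9 genes.

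**Figure D1:**
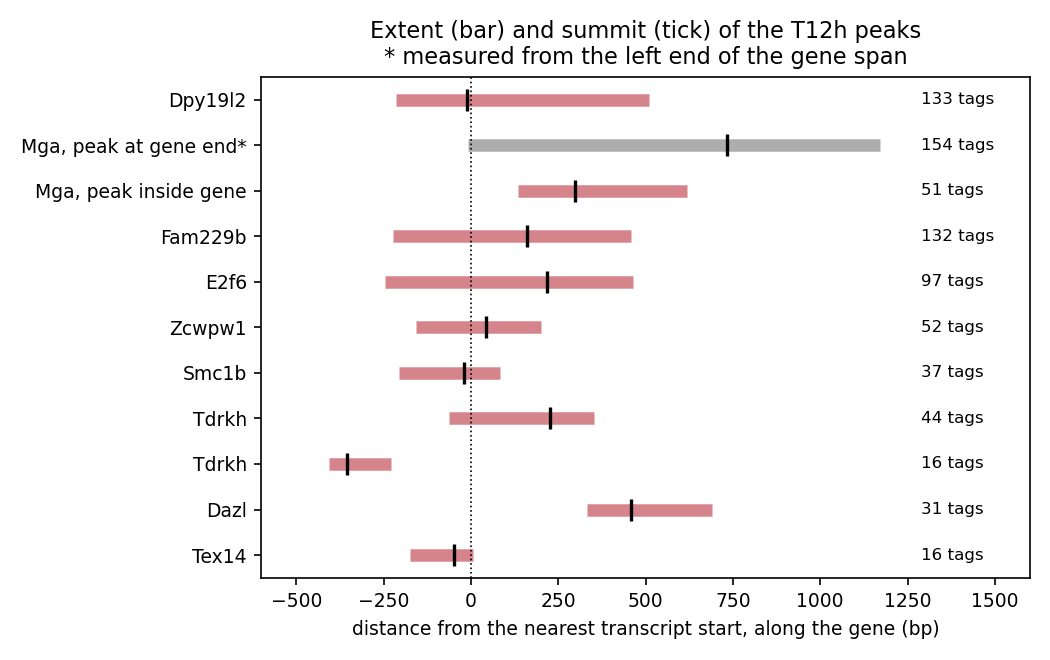
Bars show the extent of each of the 11 T12h peaks in or near the 9 genes, and ticks show the summits, against the distance in bp from the nearest RefSeq transcript start along the gene. The grey Mga bar is measured from the left end of the gene span instead. Summits of Dpy19l2, Smc1b, Zcwpw1 and Tex14 lie within 50 bp of a start, and those of Dazl and the weaker Tdrkh peak lie farthest from one among the red bars.

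Tags ran from 16 to 154 and tag density from 8.66 to 19.4 tags per 100 bp across the strongest peak of each gene. Dpy19l2 and Fam229b were the densest at 18.3 and 19.4, and Dazl, Tex14 and Tdrkh the sparsest at 8.66, 8.84 and 10.6. Fold and score did not give the same order: Smc1b had the second highest fold, 14.52, from 37 tags, while Mga had 154 tags at a fold of 11.55.

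For 4 of the 9 genes the summit lay within 50 bp of a listed transcript start. Of the 351 T12h boundary peaks within 1 kb of a listed start that had no T48h overlap, 19.1% lay as close, and their median distance was 206 bp. The sets are not alike: the 351 were measured to the nearest start of any gene, and the 9 to their own. The Mga boundary peak, at -23992 bp from its listed start, counts among the 9. Against all 514 T12h boundary peaks without T48h overlap, 8 of the 9 genes were above the median fold of 7.07 and 7 above the median score of 78.33. These measures come from the list that chose the genes and are given as a description.

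**Figure D2:**
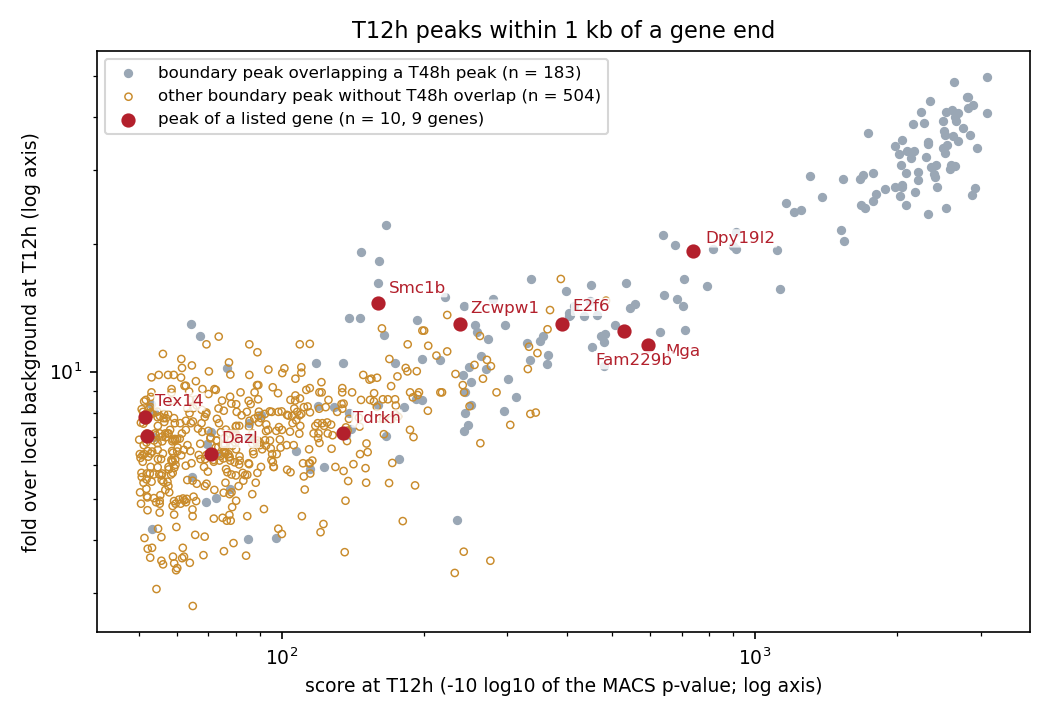
Each point is a T12h boundary peak, with the score on the x axis and the fold over local background on the y axis, both on log scales. Grey points overlap a T48h peak, open points do not, and red points are the 10 boundary peaks of the 9 genes (the unlabelled red point is the weaker Tdrkh peak). Dpy19l2, Mga and Fam229b lie at scores from 529.42 to 740.86. The other 17 points from 500 to below 1000 are grey.

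The strongest of these peaks stood at the head of the T12h boundary peaks missing at T48h. Ordered by score, Dpy19l2, Mga and Fam229b were the first 3 of the 514. The peak of Prxl2a followed with a score of 484.79 and a fold of 14.72, then E2f6, then Zfp280d with 389.08 and 16.56. Zcwpw1 was number 27, between Piezo1 (241.44) and Hmgn1 (236.55). Smc1b was number 68, Tdrkh 96, Dazl 305 and Tex14 number 496, next to the peak shared by Rlbp1 and Fanci (51.64) and that of Gm40237 (51.3).

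How often a T12h boundary peak overlapped a T48h peak rose with its score. From a score of 500 to below 1000, 17 of 20 peaks overlapped (85%, exact binomial 95% interval 62.1 to 96.8), and the 3 that did not were those of Dpy19l2, Mga and Fam229b. From 300 to below 500, the range of E2f6, 23 of 34 overlapped (67.6%). In the range of Zcwpw1, from 200, it was 20 of 44 (45.5%), and in that of Smc1b and Tdrkh, from 100, 26 of 155 (16.8%). At the scores of Dazl (from 60) and Tex14 (from 50) overlap was found for 16 of 229 (6.99%) and 4 of 138 (2.9%) peaks, so absence at T48h was the usual outcome there. Intervals cover counting error only.

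Peaks that were found at both times had a lower median fold at T48h in each score range, but the difference was small at low scores. The medians at T12h and T48h were 7.52 and 6.97 for the 4 such peaks in the range of Tex14, and 6.87 and 6.47 in that of Dazl. In the range of Tex14 the median T48h score was 69.71, above the T12h scores of that range. In the score range of Dpy19l2, Mga and Fam229b, the 17 overlapping peaks had a median fold of 15.96 at T12h and 8.19 at T48h, with a median T48h score of 217.39 and a lowest of 55.25. In the range of E2f6 the medians were 12.14 and 7.31, with a median T48h score of 84.63 and a lowest of 54.53. No peak under a score of 50.02 is in the T48h list, so a weaker T48h signal at the 9 genes would leave no entry. Tag counts at these sites at T48h were not analysed here. The T48h library was the deeper, with 67116740 tags kept after filtering against 55539917 at T12h.

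**Figure D3:**
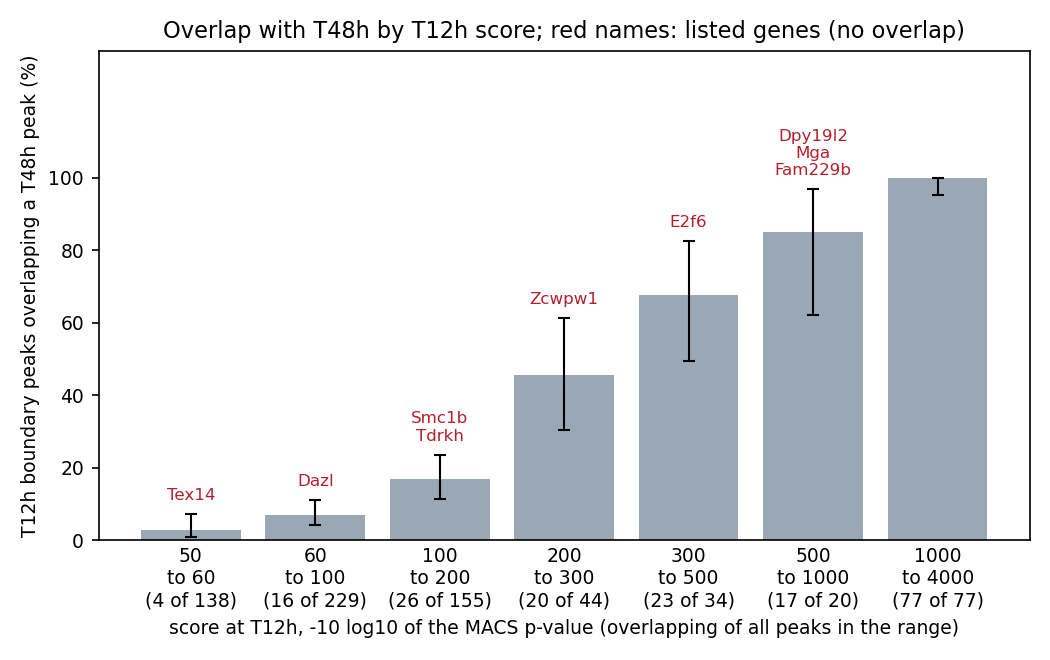
Bars give the percent of T12h boundary peaks that overlapped a T48h peak, by range of T12h score, with exact binomial 95% intervals. Numbers in brackets are overlapping peaks of all peaks in the range. Red names mark the 9 genes by their strongest peak, none of which overlapped, as the rule required. The share is 2.9% in the range of Tex14, 85% in that of Dpy19l2, Mga and Fam229b, and 100% from 1000 on (77 of 77), where none of the 9 genes lies.

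Several of the peaks lay where a pair of divergent genes meet and cannot be given to 1 of them. The Fam229b peak also covered the start of Tube1, which encodes epsilon-tubulin: the genes are 34 bp apart, and the summit was 176 bp inside Fam229b and 211 bp from Tube1. The Tex14 summit was 5 bp from the end of Tex14 and 64 bp from that of Rad51c, a gene of homologous recombination, with 58 bp between the genes. For Smc1b and Ribc2, which encodes a protein of ciliary microtubules, the distances were 19 and 84 bp. Tdrkh is 287 bp from 1700040D17Rik. E2f6, Mga, Dazl, Zcwpw1 and Dpy19l2 had no other annotated gene end within 1 kb of the summit.

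In the promoter table all 9 genes matched, and their windows run from 250 bases before to 50 after each start. All 9 were CpG-rich, taken as a GC content of at least 50% with CpG observed over expected of at least 0.6 as a mean over the listed starts of a gene. This held for 44.8% of all 17491 protein-coding genes listed there and for 79.9% of the 518 with a T12h boundary peak. The median CpG ratio was 0.894 for the 9 genes, 0.825 for genes with a T12h boundary peak and 0.564 for all. Smc1b (1.083) and Zcwpw1 (1.004) had the highest ratios and Tex14 (0.686) the lowest. The Mga and Dazl windows lay wholly outside their T12h peaks, so their values describe sequence that was not under those peaks. The ratio of Mga is the median of 0.894. Of the 50 other germline genes without a T12h boundary peak in the table, 24 (48%) were CpG-rich, near the share of all genes.

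**Figure D4:**
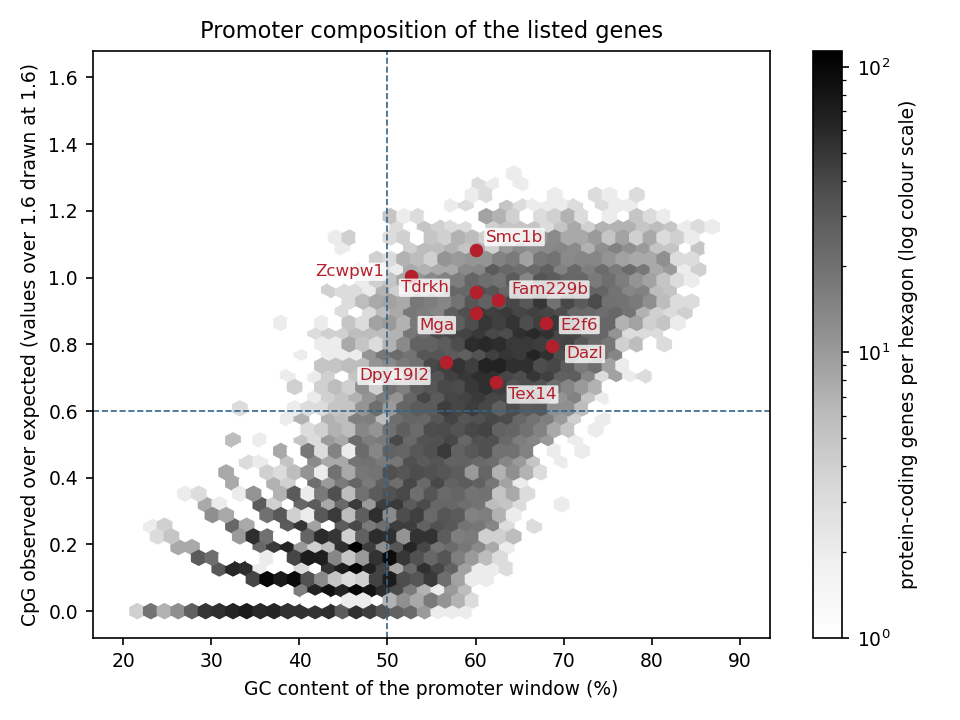
The x axis gives the GC content of the promoter window in percent and the y axis the ratio of observed to expected CpG. Grey hexagons count all protein-coding genes in the promoter table, red points are the 9 genes, and dashed lines mark 50% and 0.6. The 9 genes all lie in the upper right field, with ratios from 0.686 to 1.083.

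The E2F core GCGGGA, on either strand, was present in 4 of the 9 genes (E2f6, Smc1b, Tex14 and Fam229b, where it occurs 2 times). It was present in 28.4% of all protein-coding genes in the table, in 46.1% of those with a T12h boundary peak and in 38% of the germline genes without one. The longer E2F site GGCGGGAA, which contains the core, was found in Tex14 alone of the 9, and in 3.28% of all genes and 20% of germline genes without a boundary peak. In the E2f6 sequence printed above, the core lies at -53 from the listed start and inside the annotated gene span, within the gene of an E2F factor itself. The Fam229b matches lie inside the annotated span of the neighbouring gene Tube1, and the Tex14 match begins on the 5′ end base of Rad51c.

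The E-box CACGTG was found in Dpy19l2 alone of the 9 genes, against 8.91% of all genes and 16.6% of genes with a T12h boundary peak. It was held by 19 of the 50 germline genes without a boundary peak (38%). The extended form TCACGTGA, which contains the E-box, and AGGTGTGA, a T-box element, were in none of the 9 and in 1.41% and 1.35% of all genes. CCAAT was in 4 of the 9 (Dazl, Fam229b, Smc1b and Tdrkh), near the 42.3% of all genes, and Tdrkh held 5 copies. A match is a description of the letters only. Windows do not cover the whole of most peaks, and those of Mga and Dazl cover no part of theirs.

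The other subunits of PRC1.6 were examined next. This list and those that follow were written with earlier results of these data known. Their shares are descriptions and were not tested. Of the 13 subunit genes besides E2f6 and Mga, which were chosen for their peaks, 3 had a T12h boundary peak (23.1%, exact binomial 95% interval 5.04 to 53.8), where 2.93% of all protein-coding genes had one. They were Hdac2, a histone deacetylase gene (69 tags, score 266.38, fold 9.62), Rybp, which encodes a RING1-binding subunit (42 tags, 148.76 and 9.82), and Tfdp1, which encodes the DP1 partner of E2F factors (41 tags, 64.85 and 4.55). None of these 3 peaks overlapped a T48h peak, so Hdac2, Rybp and Tfdp1 met the same peak rule as E2f6 and Mga. At T48h 0 of these 13 had a boundary peak, against 1.06% of all genes. A count of 0 allows a share of up to 23.1%, taken here and for the lists that follow as 3 counts of the total, and the exact binomial upper limit is 24.7%.

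Each role held genes with and without a peak. Among the other genes of the DNA-binding pairs Tfdp1 had one, while Max and Tfdp2 had none. Of the core and scaffold genes Pcgf6, L3mbtl2, Rnf2, Ring1, Rybp and Yaf2, Rybp alone had one. Of Wdr5, Hdac1, Hdac2 and Cbx3, Hdac2 alone had one. Tfdp1 lies on chromosome 8, which held 130 T12h peaks and 41 T48h peaks, and its fold was below the median of 7.07.

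Among 18 genes of other PRC1 complexes, Cbx6, a chromobox gene, had a T12h boundary peak (37 tags, score 110.07, fold 10.24). That is a share of 5.56% (exact binomial 95% interval 0.141 to 27.3), against 2.93% of all protein-coding genes. The Cbx6 peak also lay within 1 kb of an end of Npcd. A pair of T12h peaks near Bmi1 lay 2304 and 3737 bp from its end with folds of 8.93 and 10.01, and Auts2 held a peak of fold 9.14 far inside the gene. No gene of this list had a T48h boundary peak, which allows up to 16.7% (exact binomial upper limit 18.5%).

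Of 60 germline genes besides those 7, 3 had a T12h boundary peak (5%, 1.04 to 13.9), near the 2.93% of all protein-coding genes, and 0 had one at T48h, which allows up to 5% (exact binomial upper limit 5.96%). Ddx25, a testis RNA helicase gene, had 54 tags with a score of 184.41 and a fold of 10.01, and the peak also lay within 1 kb of Pus3. Syce2, a gene of the synaptonemal complex on chromosome 8, had 2 peaks with folds of 8.24 and 4.96. Mei1, a gene needed for meiotic double-strand breaks, had a peak of 25 tags and fold 7.65. These 3 genes also had no overlapping T48h peak, so they met the same peak rule as the chosen germline genes. The share is therefore not one of genes that failed the rule.

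Among the 24 other meiosis genes 2 had a peak, among 14 other piRNA and transposon control genes 0, among 12 other germ cell regulators 1, and among 10 other genes of spermatogenesis 0. For the piRNA group a count of 0 allows a share of up to 21.4% (exact binomial upper limit 23.2%), and for the spermatogenesis group up to 30% (30.8%).

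**Figure D5:**
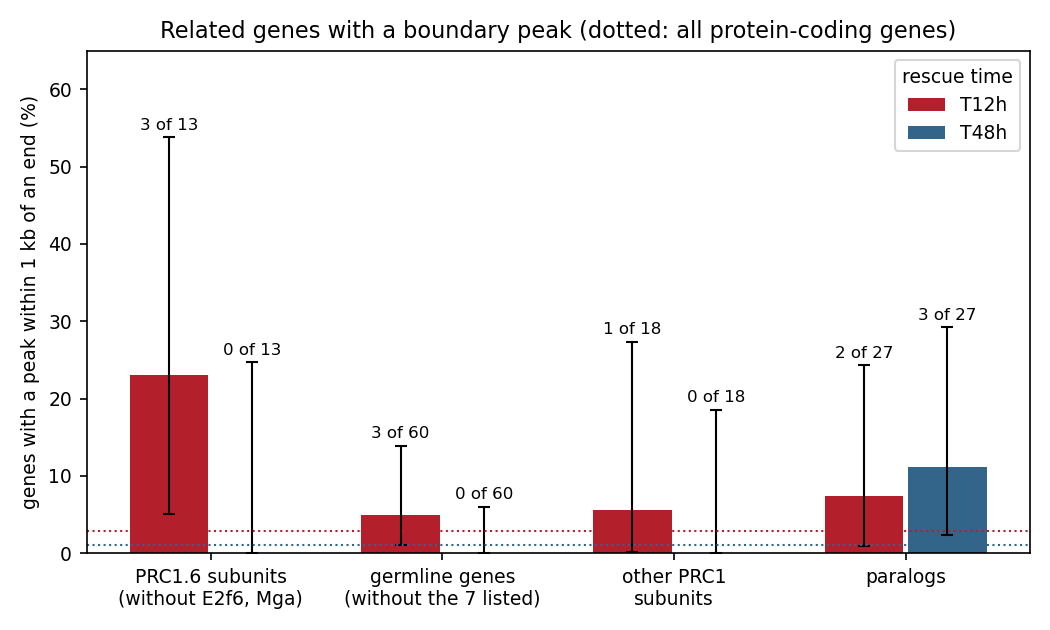
Bars give the percent of genes in each list with a boundary peak at T12h (red) and T48h (blue), without the 9 genes, with exact binomial 95% intervals and counts. Dotted lines mark all protein-coding genes, 2.93% at T12h and 1.06% at T48h. PRC1.6 subunits reached 3 of 13 at T12h and 0 of 13 at T48h, and germline genes 3 of 60 and 0 of 60. The lists were written with earlier results of these data known, and no test was run.

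A germline gene outside the 9 had a peak at both times. Stag3, which encodes the meiotic STAG subunit of cohesin and is thus a partner of Smc1b, would not meet the rule, since its T12h peak overlapped a T48h peak, and it was not counted as having a boundary peak, since its annotated span begins 7875 bp from the T12h summit. The T12h peak (chromosome 5, 138280196 to 138280610) lay at -120 bp from the listed Stag3 start and held 67 tags over 415 bp with a score of 337.02 and a fold of 16.53. The T48h peak (138280129 to 138280476) held 39 tags over 348 bp with a score of 73.11 and a fold of 5.36. Both also lay within 1 kb of the end of Gpc2. Distance was also measured from listed transcript starts, a choice made after the data were seen. All 9 genes then had a T12h peak within 1 kb, and none had one at T48h. Over protein-coding genes in the table the shares were 3.17% and 1.11%. The rule that chose the 9 genes asked for almost the same thing, so their counts were largely fixed in advance and were not tested. For Mga the T12h peak counted here was the second one, inside the gene, and not its boundary peak. By the same measure Stag3, Syce2 and Ddx25 were the other germline genes at T12h, and Stag3 was the only one at T48h.

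Of 27 listed relatives of the 9 genes, 2 had a boundary peak at T12h (7.41%) and 3 at T48h (11.1%). Over all protein-coding genes the shares were 2.93% and 1.06%. E2f3, which encodes an activating E2F factor, had a peak at both times, with 370 tags and a fold of 27.34 at T12h and 283 tags and a fold of 14.24 at T48h. Dpy19l3, a relative of Dpy19l2, had T12h peaks with folds of 12.42 and 8.03 that overlapped 1 T48h peak of fold 5.85. Mycn, whose product pairs with MAX, had a boundary peak at T48h alone (170 tags, fold 9.15). Its summit lay inside the gene, 899 bp from the 3′ end and 4844 bp downstream of the listed start. The other listed E2F genes, the somatic cohesin genes Smc1a, Smc3, Rad21, Stag1 and Stag2, and Fam229a had none. A peak 4257 bp from Dazap1 lay at Rps15.

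The genes most like the 9 in T12h score, fold and width were Hmgn1, Azin2, Tmem185b, Atl3 and Dnajb3. Likeness was the distance on the log2 scale to the median of the 9 (score 237.76, fold 12.45, width 416 bp), over 439 protein-coding genes outside all lists with T12h boundary peaks and no T48h overlap. Their scores ran from 200.06 at Tmem185b to 262.48 at Dnajb3, and their folds from 11.16 at Atl3 to 13.61 at Azin2.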

How the data were processed

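ChIP-seq of HA-hWDR5 was analysed from 2 deposited peak tables, 1 per rescue time. For both rescue times the labels give fixation with 2 uM DSG for 30 min and with 1% PFA for 10 min. They also give 15 ug of antibody. Peaks were called by MACS 1.4.2 on 1 ChIP library against 1 control library, with a p cutoff of 1e-05 and 1 tag kept per position, per the file headers. MACS estimated a fragment length of 56 bp at T12h and 57 bp at T48h, per the file headers. The submitters' processing notes list Bowtie2 and mm10. Each peak carries, as deposited by the authors, the tag count (whole numbers), the score, the fold as a ratio to local background and the false discovery rate in percent. These values were used unchanged. T12h had 1197 peaks and T48h 660.

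Summits were set against gene ends of the RefSeq annotation (GRCm38.p6), which gives spans and no exons. Sharing meant overlap of at least 1 bp. Promoter windows came from RefSeq, and motifs were searched on both strands. Members and lists (127 genes, all matched) were chosen with earlier results of these data known, and each time had 1 ChIP library, so no test was run. The text names the 9 genes, their neighbours, listed genes with a peak within 5 kb, neighbours in score order and the 5 most alike genes. Stag3 and Auts2, whose peaks lie farther inside the gene, were chosen after their values were seen. Assignment and overlap were tested on simulated data with known answers. Alternatives covered distance, score, false discovery rate, nearest gene, overlap and window. Scripts ran in Python 3.11.15 with scipy 1.17.1, pandas 2.3.3, numpy 2.4.6 and, for plots, matplotlib 3.10.9. Reads and inputs were not analysed here.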

Additional observations from a re-analysis of the deposited data

How the results depend on the processing

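Of 29 recomputed counts, 28 stayed within 1.5 times the reported value. The exception was the count of other germline genes with a T48h peak, which was 0 from gene ends and 1 (Stag3) from listed transcript starts. Some of the 29 could not change, such as the T12h count of the 9 genes at 5 kb and the T48h counts of 0 at 500 bp. The 28 are therefore not a measure of robustness. Of the 9 genes, 7 kept a T12h boundary peak at 500 bp (Mga and Zcwpw1 were lost), 7 at a score of at least 100 or in the upper 50% by score (Dazl and Tex14 were lost), and 8 at a false discovery rate of at most 5% (Tex14 was lost). None gained a T48h peak at 5 or 20 kb, and none had a T48h peak within 10 kb of its T12h peak. No paired analysis was possible because each rescue time had 1 ChIP library. With 1 library per time no spread between replicates is known, and the peak tables hold no value for a site without a peak.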

Other observations

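After the promoter sequences had been read, the letters TGCGCA were noticed in several of them. This palindrome is part of the known NRF1 element. It was present in 5 of the 9 genes (E2f6, Mga, Dazl, Zcwpw1 and Fam229b), in 11% of all protein-coding genes in the promoter table, in 20.1% of those with a T12h boundary peak and in 24.3% of those with a T48h boundary peak. Of the 50 germline genes without a T12h boundary peak, 18 (36%) held it. In E2f6, Zcwpw1 and Fam229b the match lay inside the T12h peak, and in Mga and Dazl it did not. The motif was chosen after the sequences were seen, so the count is a description.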
